A study of Mus musculus with 2 samples.

Results

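Mid1, Celf3, Nefl, Phospho1, Lrrc31, Rcor2 and Igf2bp1 are 7 genes that gave clearly more signal in renal collecting duct cells of Gata2-deleted mice than in those of wild-type mice. They were chosen by name because of that difference, so it describes the choice and is not a finding. All 11 array probes that carry these gene names were taken. The 7 genes stand among 14212 named genes that were measured on at least 1 of the arrays.

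The study asked which genes differ in adult collecting duct, the last part of the renal tubule, when the zinc finger transcription factor GATA2 is removed. One group was wild type (WT), a label that gives no transgene or floxed allele. The other had the genotype Gata2flox/-::Pax8-rtTA::Tet-Cre (Gata2 CKO). These mice thus had 1 floxed and 1 null Gata2 allele, a doxycycline-dependent activator driven by Pax8, which is active along renal tubules, and a Cre recombinase under that activator. The protocol, worded alike for both samples, has mice of 4 weeks drink doxycycline during a further 4 weeks. Mice of both groups were 8 weeks old and of mixed sex. The design text names 3 mice per genotype, but each genotype has 1 array, and whether the mice were pooled is not spelled out in the labels. Cells were purified with magnetic beads and the lectin of Dolichos biflorus (DBA), which binds collecting duct epithelium, and total RNA was hybridised in 1 colour. Loss of Gata2 in tubules cannot be told apart from loss of 1 allele in other cells, from doxycycline acting with the transgenes, or from any difference between the 2 preparations.

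The genes do not form a known pathway. MID1 is a ubiquitin ligase of the tripartite motif (TRIM) family that binds microtubules and targets protein phosphatase 2A for degradation. NEFL is the light subunit of neurofilaments, the intermediate filaments of axons. CELF3 binds RNA and regulates splicing, mostly in the nervous system, and IGF2BP1 is an RNA-binding protein of fetal tissues that stabilises growth-related messages and is largely silent in adults. RCOR2 is a CoREST protein, the scaffold that joins the histone demethylase KDM1A to histone deacetylases, and the repressor REST recruits CoREST complexes to neuronal genes. PHOSPHO1 is a phosphatase that releases phosphate from phosphocholine and phosphoethanolamine at the start of bone mineralization. LRRC31 is a leucine-rich repeat protein of epithelia that is known to be induced by interleukin 13 in the oesophagus.

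The Mid1 probe with the higher signal had an unusual sequence, and it is shown because the largest difference among the 7 genes was read from it. Its 60 bases consist of 2 near copies of a stretch of 30, printed 5′ to 3′ with the capitals marking bases that are not identical in the alignment of the copies:
Mid1 probe, bases 1 to 30: ccccctgcTtcagaaatTactcacaGtcaT
Mid1 probe, bases 31 to 60: ccccctgcCtcagaaTatCactcacaAtca
The copies share 26 of 31 aligned columns, or 83.9%, with 3 mismatches and 2 unpaired bases. When the probe was shifted against itself with no gaps, the best match was at a shift of 31 bases, with 65.5% identical positions, a share that 0.374% of all probes on the array reached. The files place it on the plus strand of the X chromosome at chrX:166443573-166443695 (mm9), a span of 123 bases for a probe of 60. No other probe on the array shares a run of 15 bases with it.

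The probe of Phospho1 is shown because Phospho1 rests on this sequence alone. It lies on the plus strand at chr11:95692092-95692151 (mm9), at position 547 of its transcript:
Phospho1 probe: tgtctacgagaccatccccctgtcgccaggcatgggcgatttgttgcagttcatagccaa
Of the 11 probes of the 7 genes, 3 hold a stop codon in every reading frame of the transcript strand, namely the second probe of Nefl and the first and second probes of Igf2bp1. Whether the other probes lie in coding exons was not analysed here.

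Promoters were taken from RefSeq (GRCm38.p6) as 300 bases, 250 before and 50 after a transcription start, and were found for Mid1, Celf3, Phospho1, Lrrc31 and Rcor2. They were searched on both strands for the GATA-factor hexamers AGATAA (ending in A), AGATAG (ending in G), and the same with T as the first letter, TGATAA (ending in A) and TGATAG (ending in G). Celf3 was the 1 gene of these 5 with a match, against 33.0% of the 27025 genes in the table. Of 13 windows 3 held one, all among the 7 windows of Celf3, of which the first and second overlap and hold the same matches; of all 32851 windows 29.8% did. A match is a string of letters and not a bound site. The first window of Celf3 is shown with its matches in capitals, at chr3:94478045-94478344 on the plus strand (GRCm38.p6); the first match reads on the opposite strand:
Celf3 promoter: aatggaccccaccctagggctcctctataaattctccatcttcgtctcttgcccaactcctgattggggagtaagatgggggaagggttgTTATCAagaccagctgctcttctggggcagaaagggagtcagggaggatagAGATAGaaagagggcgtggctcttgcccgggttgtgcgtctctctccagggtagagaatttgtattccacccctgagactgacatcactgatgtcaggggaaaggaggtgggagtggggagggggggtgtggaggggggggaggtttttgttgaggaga
The window of Phospho1 is shown for contrast, at chr11:95824250-95824549 on the plus strand (GRCm38.p6), and it held none of the 4 hexamers:
Phospho1 promoter: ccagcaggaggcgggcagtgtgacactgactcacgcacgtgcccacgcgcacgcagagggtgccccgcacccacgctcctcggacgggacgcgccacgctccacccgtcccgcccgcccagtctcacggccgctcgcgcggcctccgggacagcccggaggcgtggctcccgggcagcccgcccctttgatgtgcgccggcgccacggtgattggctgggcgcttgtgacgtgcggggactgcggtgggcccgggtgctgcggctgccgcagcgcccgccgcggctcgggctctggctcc
The promoters also differed in CpG dinucleotides, of which Phospho1 had 42 and Rcor2 had 21, whereas Lrrc31 had 3, the windows of Celf3 had 1 to 12 and those of Mid1 had 2 to 13. The median of all windows was 7.

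The values are spot intensities of the scanner software in its own units, after its background subtraction, each with the error that the software gives for that 1 spot, and probe positions are those of mm9 on the plus strand unless said otherwise. The 75th percentile of signal was 314 for WT and 250.1 for CKO. Differences are CKO minus WT of log2 signal, each relative to the 75th percentile of its array, so that a difference of 1 is 2-fold. The software called signals well above background from 12.0 upward in WT and from 11.6 upward in CKO, and the brightest of 153 negative control spots reached 8.73 and 7.35. Gata2 itself, read by probes that may lie outside the deleted stretch, was lower by 0.37 and 0.32 (± 0.20 for each probe), and such probes do not check the deletion. With 1 array per genotype no difference has a replicate check, no test was run, and precision is limited by the number of arrays. In these bulk samples more cells of a type and more RNA per cell cannot be told apart.

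Mid1 showed the largest difference of the 7 genes by its brightest probe, and both of its probes were higher in CKO. Celf3, at 2.83, lies within the spot error of Mid1. The mean over the Mid1 probes was at least 2.60, because the dimmer probe enters it as a bound, so it does not order these genes. The WT array read 796 ± 79.7 and the CKO array 4743 ± 474 at the repeat-containing probe, a difference of 2.90 ± 0.20, or 7.49-fold. A second Mid1 probe, 15.6 kb away at chrX:166427964-166428023, read 5.88 ± 2.88 in WT, not well above background, and 47.2 ± 5.42 in CKO. That makes the second probe at least 4.93-fold higher in CKO. On the WT array 1 of the 153 negative controls was at least as bright as this second probe.

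In laboratory mice Mid1 spans the boundary of the pseudoautosomal region, so part of the gene lies on both sex chromosomes, and transcripts of the sex chromosomes are given beside it. Xist, made from the inactive X chromosome of females, differed by 0.10 at its brightest probe, from 6763 to 5758 in signal, and by −0.05 and 0.55 at its other probes. Of the Y-linked genes, Ddx3y differed by −0.17, Kdm5d by −0.02 and Eif2s3y by 0.56. Uty passed the background limit in WT alone. None of these transcripts differed by 2-fold, and the part of sex in the Mid1 difference was not tested.

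A transcript known only by the accession ENSMUST00000124513 lies on the minus strand near the second Mid1 probe and was picked after its values were seen. Its overlapping probes, 3.23 and 3.29 kb from that probe, read 7.17 and 2.59 in WT and 22.2 and 22.4 in CKO. Both were well above background on the CKO array alone, which makes them at least 2.31-fold and at least 2.33-fold higher there. ENSMUST00000149258, on the plus strand nearby, was well above background on neither array. Within 500 kb of the Mid1 probes no other named gene was measured.

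Nefl was the other cytoskeletal gene, and its probes gave nearly the same answer. The first probe (chr14:68705638-68705698) read 66.8 ± 7.12 in WT and 224 ± 22.6 in CKO, a difference of 2.08 ± 0.21, or 4.22-fold. The second (chr14:68706866-68706925) read 55.3 ± 6.34 and 170.0 ± 17.3, a difference of 1.95 ± 0.22, or 3.87-fold. The probes differed by 0.13, less than either spot error. The median range between probes was 0.20 over all 5277 genes with several probes on both arrays, 0.77 over the 71 with a probe at least 2-fold higher, and 0.13 over the 13 of which, as for Nefl, every probe was.

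Celf3, an RNA-binding protein, was close to background in WT. It read 14.3 ± 2.90 in WT and 81.1 ± 8.46 in CKO at its probe on chr3:94295991-94296049, a difference of 2.83 ± 0.33, or 7.11-fold. The WT signal was 1.19 times the lowest signal well above background, so the fold rests on a value near the limit of measurement.

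Igf2bp1, the fetal RNA-binding protein, was read by 3 probes on the minus strand that ran the same way by unequal amounts. The first (chr11:95824526-95824585) read 20.7 ± 3.45 in WT and 61.6 ± 6.69 in CKO, a difference of 1.90 ± 0.29, or 3.74-fold. The second (chr11:95819412-95819471) read 13.2 ± 2.86 and 23.1 ± 3.35, a difference of 1.13 ± 0.38, or 2.19-fold. The third (chr11:95823504-95823563) read 11.5 ± 3.14, not well above background, and 14.8 ± 3.11, at least 1.55-fold higher. The probes span 1.27, with a bound at the low end, and their mean was 1.22.

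Rcor2, the CoREST scaffold, read 44.7 ± 5.36 in WT and 136 ± 13.9 in CKO at its probe on chr19:7349618-7349677, a difference of 1.93 ± 0.23, or 3.82-fold. Lrrc31 read 43.5 ± 5.0 in WT and 142 ± 14.4 in CKO at its probe on chr3:30597097-30597156, on the minus strand, a difference of 2.03 ± 0.22, or 4.10-fold. The differences of Rcor2 and Lrrc31 lay within each other's spot errors. Phospho1, the mineralization phosphatase, read 17.5 ± 3.44 in WT and 57.8 ± 6.41 in CKO at the probe printed above, a difference of 2.05 ± 0.33, or 4.15-fold. Its WT signal was 1.45 times the lowest signal well above background.

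**Figure D1:**
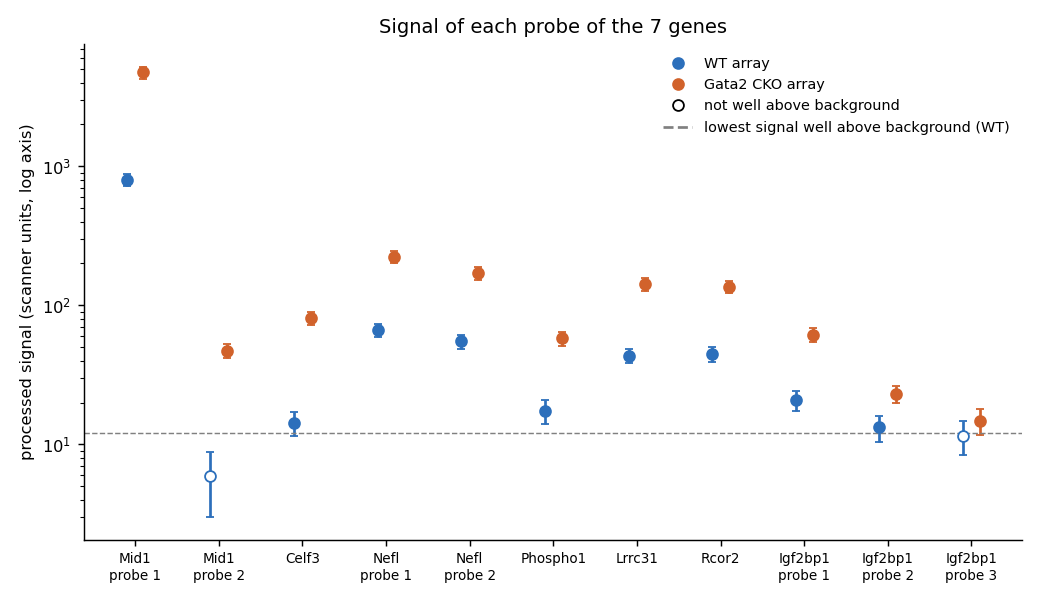
Processed signal, on a log axis, of each of the 11 probes on the WT and the Gata2 CKO array, with the spot error of the scanner software as bars and open circles for spots not well above background. Every probe was brighter on the CKO array, from the first Mid1 probe at 4743 to the third Igf2bp1 probe at 14.8, and most WT values lie within a few multiples of the lowest signal well above background (dashed line).

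Seen over all 11 probes, 9 were well above background on both arrays and 10 were at least 2-fold higher in CKO, bounds included. All 7 genes were at least 2-fold higher, a size that 1.25% of the 14212 measured genes reached upward and 3.29% downward. Among the 13444 genes measured on both arrays these shares were 0.997% and 2.86%. The genes were chosen for this, so nothing is read from that contrast. The 6 genes other than Mid1 have WT signals from 14.3 to 66.8, and in that range 2.76% of the 2245 genes measured on both arrays differed 2-fold or more upward and 2.32% downward. The median difference of the 7 genes was 2.05, against 0.02 for all measured genes.

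How far 1 spot can be trusted at this brightness was read from probes printed several times. Of these, 23 fell in the WT signal range from 14.3 to 66.8, and the median SD of their repeated log2 differences was 0.18, with a largest SD of 0.44 and a widest range of 1.56. For 25 repeated probes with WT signals of 500 to 1500, around that of Mid1, the median SD was 0.042. Repeated spots show the error of printing and scanning and not that of mice, cell purification or labelling.

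Another background correction with an added offset moved the dim genes most, and correction and offset were not run apart. With the normexp method and an offset of 50, which is more than the WT signals of Celf3, Phospho1, Lrrc31, Rcor2 and Igf2bp1, Celf3 came to 1.24, Nefl to 1.43, Lrrc31 to 1.18 and Rcor2 to 1.14. Phospho1 came to 0.93 and Igf2bp1 to 0.84, both short of 2-fold. Mid1 stayed at 2.77 by its brightest probe, whose signal is far above the offset. The second Mid1 probe, dimmer than the offset on both arrays, came to a bound of 0.94, which does not reach 2-fold. With spike-in transcripts set equal, all 7 were at least 2-fold higher by brightest probe, from 1.36 for Igf2bp1 to 2.36 for Mid1. The median of all genes then came to −0.51. The Igf2bp1 probe at chr11:95819412-95819471 fell short of 2-fold, at 0.59 with spike-ins, 0.43 under normexp and 0.995 under cyclic loess. The Igf2bp1 probe at chr11:95823504-95823563, a bound of 0.63 in the main processing, came to a bound of 0.089 with spike-ins and 0.33 under normexp.

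**Figure D2:**
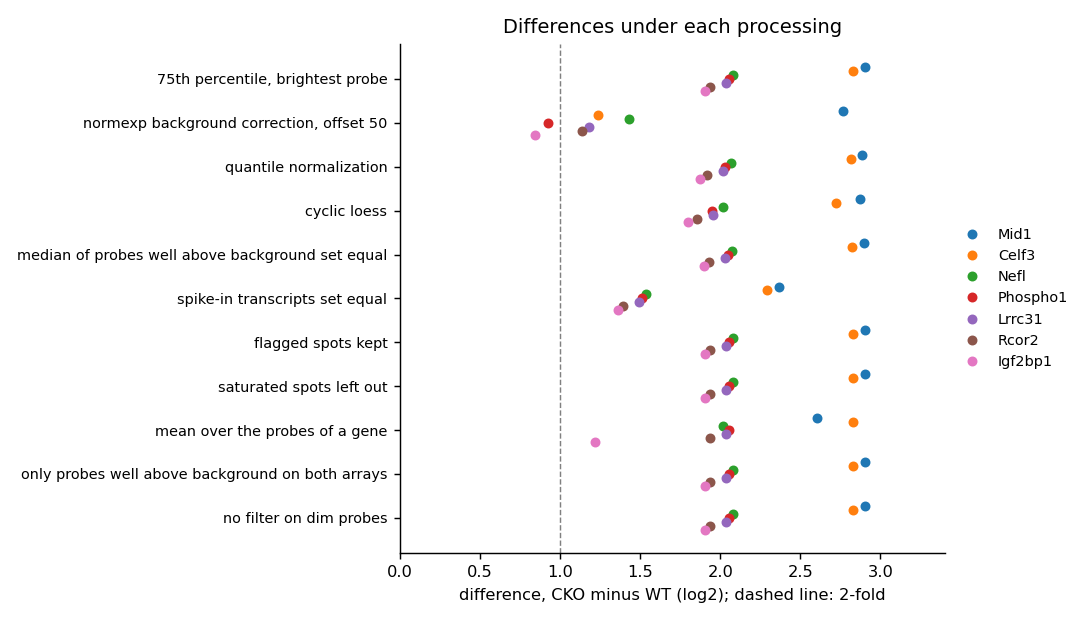
Difference of each of the 7 genes, CKO minus WT on the log2 scale, under 11 ways of processing; the dashed line marks 2-fold. Under normexp Phospho1 at 0.93 and Igf2bp1 at 0.84 lie left of the line, and Mid1 at 2.77, by its brightest probe, stays far to the right of it.

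Ranked by difference among the 13444 genes measured on both arrays, the members held ranks 3, 4, 6, 7, 8, 11 and 12. Above Mid1 stood the steroid dehydrogenase gene Hsd3b2 at 5.85 and the endothelin gene Edn3 at 3.94. Genes between the members included 9530083O12Rik at 2.03 and Atp6v1b1, a proton pump subunit of intercalated cells, at 1.94. Just below Igf2bp1 came Slc12a2 at 1.89 ± 0.21, Ptprz1 at 1.82 ± 0.20 and H2bc23 at 1.78 ± 0.35. These values lie within the spot error of Igf2bp1, so the lower edge of the group is not a gap.

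The genes nearest to each member in the pair of WT and CKO levels were in part members and in part others, and these are the values by which the members were chosen. Measured as a distance on the log2 scale, over 2 arrays, Lrrc31 and 9530083O12Rik were 0.0030 apart and Lrrc31 and Rcor2 were 0.072 apart. The probe of 9530083O12Rik lies on another chromosome and has another sequence. Phospho1 was nearest to 4933407L21Rik at 0.22 and to Igf2bp1 at 0.26, and Igf2bp1 was 0.31 from Pde4d. Celf3 was 0.57 from Phospho1 and 0.66 from Igf2bp1, and Nefl was 0.66 from Ppp1r3c and 0.68 from Gm16499. Nearest to Mid1 were Klk1b21 at 1.03 and Nnt at 1.30. With 1 array per genotype such likeness is a description of 2 numbers per gene.

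**Figure D3:**
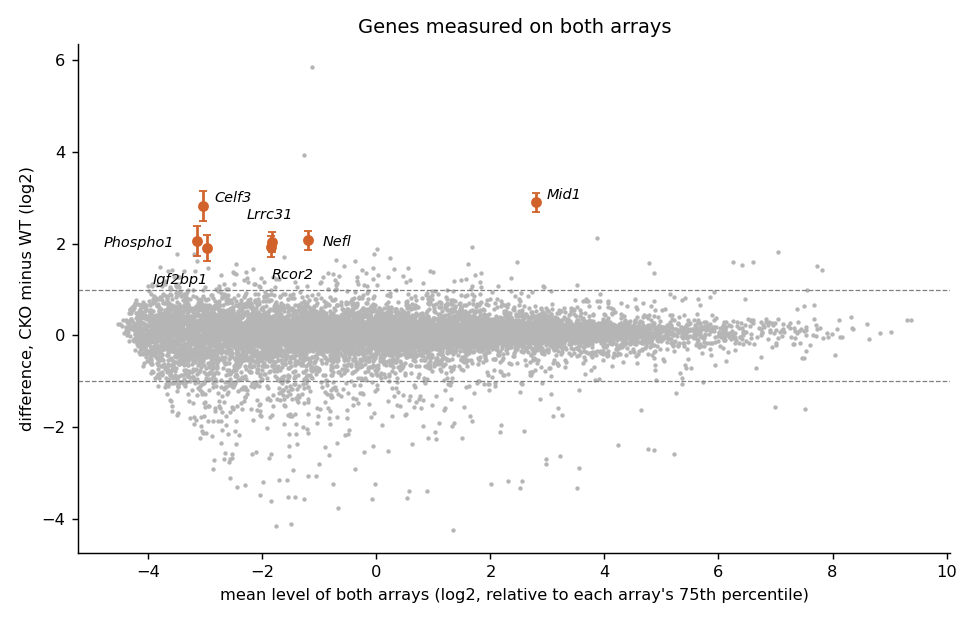
Difference between the arrays (log2) against the mean level of both arrays (log2, relative to the 75th percentile of each array) for the 13444 genes measured on both, with the 7 genes in colour and their spot errors as bars; dashed lines mark 2-fold. Mid1 lies at a high level and the other 6 lie at low levels, at the upper edge of the cloud.

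The relatives of each gene were then followed. Of all 14212 measured genes 7740 were higher, and with 1.25% at least 2-fold higher a count of 0 in a short list says little. Small differences keep their direction only relative to the 75th percentile: with spike-in transcripts set equal, all 10 relatives of Mid1, all 6 of Celf3 and all 12 of Rcor2 below were lower. Of the MID and microtubule TRIM ligases and partners of MID1, 10 other genes were measured, 5 higher and 5 lower, and 0 reached 2-fold in either direction. Mid2, the close homologue of Mid1, differed by 0.11, from 477 to 410.3 in signal before scaling. Mid1ip1, a MID1-binding protein, differed by 0.26, Igbp1, which bridges MID1 to protein phosphatase 2A, by −0.18, and the catalytic subunit Ppp2ca by 0.15. Trim46, which bundles axonal microtubules, differed by 0.41. Trim67 was well above background in WT alone, and at least 1.45-fold lower in CKO.

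Of the CELF and MBNL splicing regulators, 6 other genes were measured, 3 higher and 3 lower, with 0 at 2-fold. Celf1 differed by 0.14, Celf2 by −0.39 and Celf4 by 0.28. Celf5 passed the background limit in WT alone, with a bound of −0.27, and Celf6 and Mbnl3 on neither array. The muscleblind proteins Mbnl1 and Mbnl2, which act on many of the same exons, differed by −0.22 and 0.04.

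The other neuronal intermediate filaments differed less than Nefl or were not measured. Nefm and Nefh, the subunits with which NEFL forms neurofilaments, were not well above background on either array, with WT signals of 3.30 and 6.23, and neither was Prph. Ina, or alpha-internexin, differed by 0.34 and Nes, or nestin, by −0.54. Of 27 neuronal genes on the array, 16 were not well above background on either array, among them Stmn2, Snap25 and Syt1. Of the 11 measured, 5 were higher and 6 lower. Unc13a, a factor of synaptic vesicle priming, was 1.42 higher, from 15.2 to 32.3 in signal, and Ncam1, a cell adhesion molecule, was lower, with a difference of −1.08. As markers of nerve and Schwann cells, 6 genes were measured, of which 2 were higher. Their level, summed over these genes relative to the 75th percentile, was 11.5 in WT, with a ratio of CKO to WT of 0.932, and is almost all that of Mbp, which differed by −0.11. S100b differed by 0.54 and Dbh by 0.27, and the markers Th and Prph were well above background on neither array.

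Of the CoREST complex around Rcor2, 12 other genes were measured, of which 7 were higher and 5 lower, 0 reached 2-fold, and the median difference was 0.03, against 0.02 for all genes. The paralogs Rcor1 and Rcor3 differed by 0.07 and −0.16. The demethylase Kdm1a differed by −0.02, the deacetylases Hdac1 and Hdac2 by −0.01 and 0.04, Hmg20b by 0.21 and the recruiting repressor Rest by 0.07.

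Around Phospho1, 10 other mineralization genes were measured, 3 higher and 7 lower. Its paralog Phospho2 differed by −0.09. Mgp, an inhibitor of calcification, was lower, from 745 to 236 in signal, with a difference of −1.33. Bglap, or osteocalcin, was higher, from 309 to 573, by 1.22, but near-identical copies of this gene make its value uncertain. Alpl, the phosphatase that clears pyrophosphate, differed by −0.73, and Enpp1, which makes pyrophosphate, by 0.37. The bone-forming regulators Runx2 and Sp7 were well above background on neither array, nor were Ibsp, Dmp1 and Phex.

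Among genes of the interleukin 13 response that surround Lrrc31 in epithelia, 6 were measured, 2 higher and 4 lower, with 0 at 2-fold. Il13 itself was dim, at 19.4 and 20.8 in signal, and differed by 0.43. The receptor subunits Il4ra and Il13ra1 differed by 0.22 and −0.16 and the signal transducer Stat6 by −0.09.

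Of the IGF2BP family and fetal growth genes, 11 others were measured, 7 higher and 3 lower. Igf2bp2 differed by 0.64, and Igf2bp3 was well above background in WT alone with no fold to give. Igf2, whose message IGF2BP1 binds, was well above background in WT alone and was at least 1.95-fold lower in CKO. H19, the imprinted neighbour of Igf2, differed by 0.34, and Hmga2, a fetal chromatin protein, by 0.45. Plag1 was well above background in CKO alone, with a bound of 0.74, and Lin28a and Lin28b on neither array. Dlk1, an imprinted growth gene, was the furthest from 0, from 570.2 to 48.0 in signal, with a difference of −3.24.

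**Figure D4:**
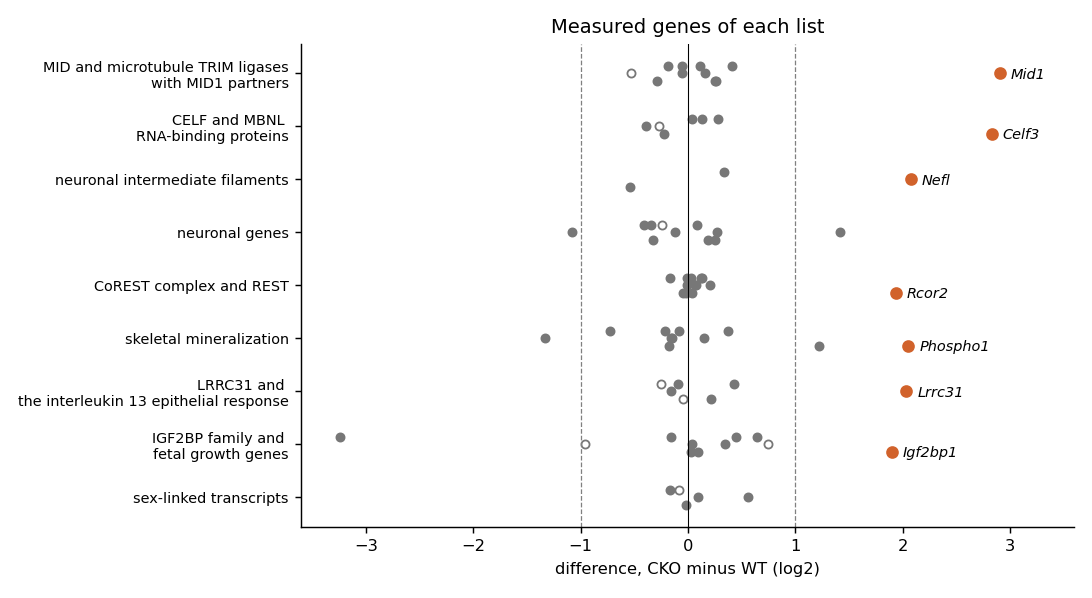
Difference between the arrays (log2) of the measured genes of 9 lists, with the 7 genes in colour, bounds as open circles and dashed lines at 2-fold. Each of the 7 genes, chosen for a high difference, lies to the right of the relatives listed with it, most of which lie between the dashed lines.

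The members lie on 5 chromosomes, and Phospho1 and Igf2bp1 are neighbours on chromosome 11, with 127 kb between their probes. Their joint window of 500 kb to each side holds 20 other measured genes, 14 higher and 6 lower, with a median of 0.11. Abi3, less than 2 kb from the Phospho1 probe, ran the other way at −0.55. Between the members lies B4galnt2, 38.5 kb from the Phospho1 probe, whose enzyme makes a sugar epitope that DBA binds. It read 10.6 and 11.3, not well above background on either array. The Hox gene Hoxb8 was 1.44 ± 0.20 higher, from 236 to 509.5 in signal, but its other probe differed by 0.18, and the other genes from Hoxb2 to Hoxb9 lay between −0.02 and 0.34.

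Near Celf3, 13 other genes were measured, 8 higher and 5 lower. Riiad1, 26.3 kb away, read 39.7 in WT and 82.2 in CKO, a difference of 1.38 ± 0.23, while Snx27 at 8.65 kb on the other side differed by 0.02 and Mrpl9 by −0.06. Near Nefl, Dock5 and Gnrh1 differed by 0.07 and 0.04. Near Lrrc31, Lrriq4 differed by 0.15, Lrrc34 by −0.12, Sec62 by −0.17 and Gpr160 by −0.19. Near Rcor2, Mark2 differed by 0.12, Naa40 by 0.16 and Cox8a by 0.29. In all, 2 of 77 neighbours, or 2.60%, were at least 2-fold higher, against 1.25% of all measured genes, and 0 were at least 2-fold lower. With spike-in transcripts set equal 0 of the 77 were at least 2-fold higher, with Riiad1 at 0.84 and Hoxb8 at 0.90, and under normexp Riiad1 came to 0.73. The mean over its probes put Hoxb8 at 0.81.

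**Figure D5:**
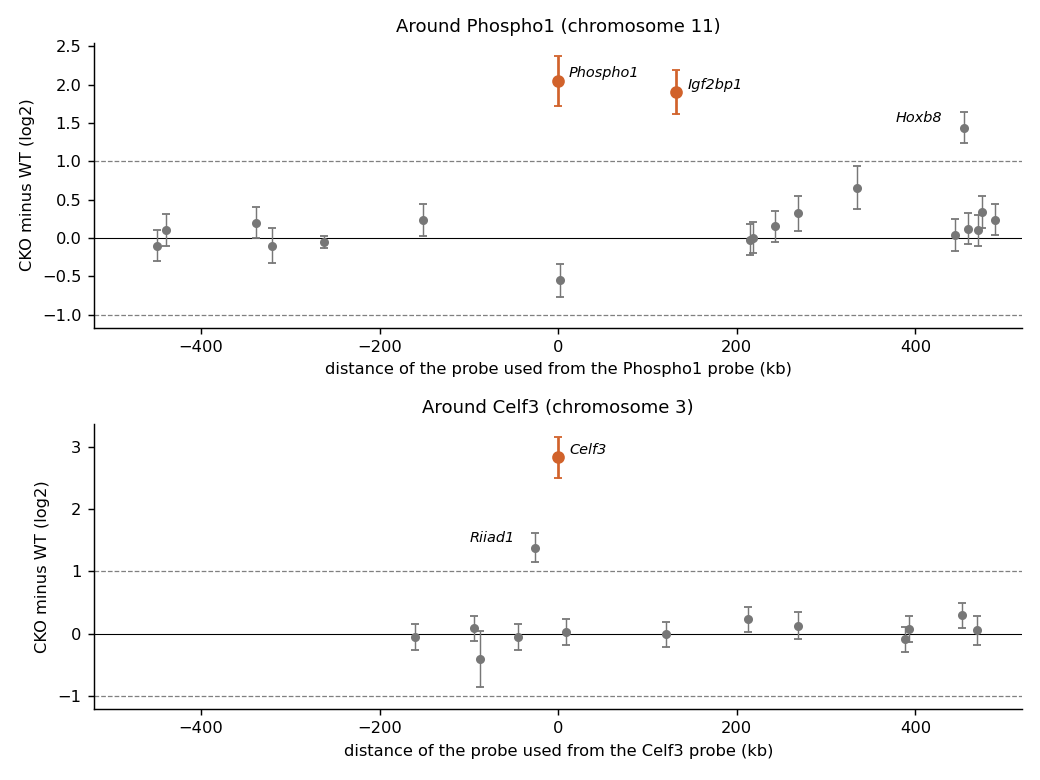
Difference between the arrays (log2, with spot errors as bars) of measured genes within 500 kb of Phospho1 and of Celf3, against the distance of the probe in kb; dashed lines mark 2-fold. Phospho1, Igf2bp1 and Hoxb8 in the upper panel and Celf3 and Riiad1 in the lower one lie above 2-fold, with genes near 0 between and around them.

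The levels of cell type markers differed between the arrays, which does not tell a change in cell makeup from a change in RNA per cell. Of 8 intercalated cell markers 7 were higher in CKO, their median difference was 0.73, and their summed level relative to the 75th percentile went from 359 to 442. Of 9 principal cell markers 1 was higher, with sums of 1032 and 876. Of 4 thick ascending limb markers 3 were higher, with sums of 45.3 and 53.2. Of 6 proximal tubule markers 1 was higher, with sums of 6.94 and 4.84. Of 4 distal convoluted tubule markers 1 was higher, with sums of 67.6 and 54.3. The largest part of these sums is Calb1 at −0.30, while Slc12a3 differed by −0.78, Pvalb by −1.40 and Trpm6 by 0.07. Of 6 macrophage markers 0 were higher, with sums of 77.1 and 34.9, of which Lyz2, at −1.26, is the largest part. Of the measured podocyte, endothelial and fibroblast markers 0 were higher. With spike-in transcripts set equal, 6 of the 8 intercalated cell markers were higher, with a median of 0.19. Of the 4 thick ascending limb markers 2 were then higher, with a median of 0.07. The largest part of the intercalated cell sum is the signal of Rhcg, an ammonia channel, which differed by −0.21. The next brightest, Slc26a4, Atp6v1g3 and Slc4a1, differed by 0.79, 0.66 and 0.91, and the pump subunit Atp6v1b1 was 3.84-fold higher. The part of cell makeup in the differences of the 7 genes was not tested.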

How the data were processed

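Per the file headers, the deposited intensity values come from Agilent Feature Extraction 10.7.3.1 with its background subtraction, and probe positions are those of mm9. How the authors normalized between arrays: not given in the sources consulted. Of 45018 spots per array 43379 were no controls. Outlier flags marked 66 spots (WT) and 73 (CKO), and a spot marked on either array was left out of both. On each array 0 were saturated. Per array, log2 signal was taken minus its 75th percentile. Each gene took the probe of highest mean signal that passed the background flag on either array. Where only 1 array measured it, the difference is a bound ("at least") against the higher of the lowest signal well above background and the dim probe's own. Genes known only by accession were left out of the gene counts, and 26876 of 41173 probes matched RefSeq (GRCm38.p6) for names.

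The members, lists and tests were chosen with earlier results of these data known. Named are all members and their probes, relatives and list genes at least 2-fold apart or with the largest differences, paralogs, near or 2-fold neighbours, genes adjacent in rank or level, and Gata2; further list genes were named after their values were seen. Some genes that this rule covers are not reported here. A planned match of probes to proteins was not run. No test was possible. The calculations were tested on simulated data. Alternatives were normexp, quantile, cyclic loess, median and spike-in scaling, probe filters, flags and averaging. Software was limma 3.58.1 (R 4.3.3), and numpy 2.4.6, matplotlib 3.10.9 and pandas 2.3.3 (Python 3.11.15).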

Additional observations from a re-analysis of the deposited data

How the results depend on the processing

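No paired analysis was possible because each genotype has 1 array, and for the same reason no replicate could be left out. All 7 genes were at least 2-fold higher under every alternative except normexp, where 5 were. Each alternative took the brightest probe of a gene, apart from the mean over probes, and dimmer probes of Igf2bp1 did not always reach 2-fold. Keeping flagged spots, leaving out saturated spots and changing the filter on dim probes returned the same value for each of the 7. Those alternatives are thus no check on these genes. The median of the 7 genes, 2.05, came to 1.18 under normexp and 1.51 with spike-in transcripts set equal. Quantile, cyclic loess and median scaling kept each of the 7 between 1.80 and 2.90. Over all measured genes 178 were at least 2-fold higher and 468 lower; normexp gave 55 and 171, spike-in scaling 41 and 1347, and no filter on dim probes 636 and 892. Spike-in scaling moved the share of higher among these from 27.6% to 2.95%, and no filter to 41.6%. None of the 7 genes changed sign under these alternatives. The median of all genes, 0.02, came to −0.03 under cyclic loess and −0.51 with spike-ins. Lists and neighbours were recomputed after seeing the data: of 77 neighbours 51 were higher, but 43 under cyclic loess and 6 with spike-ins; Unc13a came to 0.78 under normexp and 0.88 with spike-ins, Bglap to 0.68 with spike-ins, and Ncam1 to −0.45 as the mean over its probes. Dim signal over background limits Celf3, Phospho1 and Igf2bp1 most, and spot errors leave out mice, purification and labelling.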

Other observations

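Where a gene listed beside the 7 was at least 2-fold apart, its other probes did not always repeat it. Ncam1, at −1.08 with its brightest probe, gave −1.22, 0.18, 0.13 and −0.33 with others. The other probe of Unc13a and that of Dlk1 were well above background on neither array, so the differences of both genes rest on 1 probe each.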
